A study of Mus musculus with 5 samples.

Results

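FLI1 and ERG are closely related transcription factors of the ETS family, and the genes at which each was mapped are set side by side here. DamID libraries were made from mouse endothelial precursors, and the deposited lists of the FLI1-Dam and ERG-Dam libraries give, for each gene, the peaks assigned to it and the reads in those peaks. Genes were joined between the lists by Ensembl identifier. Of 10580 genes in either list, 1245 were in both, 9001 in the FLI1 list alone and 334 in the ERG list alone. The study holds 5 libraries: a library of Dam fused to each of SOX7, FLI1 and ERG, a control of Dam alone that belongs to SOX7, and another that serves both ETS factors. The SOX7 list was not used.

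All of the cells came from engineered derivatives of the Ainv18 mouse embryonic stem cell line. FLI1-Dam was expressed from the line labelled IFli1::Dam, ERG-Dam from iErg::Dam and Dam without a factor from iDam. Each factor thus has a line of its own, and factor and line cannot be told apart. FLK1+ cells were taken from embryoid bodies at day 3, cultured for 1 day as blast cultures and sorted for cKIT and TIE2. There is 1 library for each factor, so no difference between the lists has a replicate check and no test was made. Both lists rest on the same control, so genes in common are a description of these libraries only.

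ETS factors share a DNA-binding domain that recognises a GGAA core. FLI1 and ERG both act in the formation of blood vessels and in blood stem and progenitor cells. In DamID the factor is fused to the bacterial enzyme Dam, which methylates the adenine of GATC near the places where the fusion contacts DNA, and the methylated fragments are sequenced.

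Values are compared as percentiles because the lists differ in depth. A gene's read density is the reads in its peaks per kb of those peaks, and its percentile is the rank of that density among all genes of the same list. The FLI1 list holds 16834 peaks with 2665309 reads, and its median gene had 169 reads. The ERG list holds 1588 peaks with 135623 reads, and its median gene had 36 reads, which carries an exact Poisson interval (95%) of 25.21 to 49.84. The median peak was 1650 bp wide in the FLI1 list and 950 bp wide in the ERG list. Intervals of a percentile below are the places of the lower and upper Poisson bounds of the reads in the same list, and cover counting error only. Genes with percentiles at least 50 points apart are called ranked apart, those within 10 points ranked alike, and those at or above percentile 90 in both lists high in both.

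Peak lists hold no expression, so the labelled cell type could not be checked against expressed markers. The FLI1 list held 35.5% of 21900 RefSeq protein-coding genes and the ERG list 5.79%, the shares to read the next counts against. Of 6 endothelial precursor markers, Kdr, Tek, Kit, Cdh5, Pecam1 and Eng, all 6 were in the FLI1 list and 1, Eng, was in the ERG list. Of 4 blood markers, Ptprc and Gata1 were in the FLI1 list and none was in the ERG list. Of 3 neural markers, Pax6 and Nes were in both lists and Tubb3 in neither. Of 3 cardiac and smooth muscle markers, 1, Myl7, was in the FLI1 list, and of 2 markers of undifferentiated cells, 1, Pou5f1, was, with 0 of either kind in the ERG list.

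Promoter windows of 6 genes are shown, 1 gene of each pattern described below and Etv2 besides, and were picked after the values were seen. Each window is 300 bases, from 250 before to 50 after a gene start, from RefSeq on GRCm38.p6 and printed 5′ to 3′ along the gene. Capitals mark the ETS core GGAA and its reverse complement TTCC. The peaks are on the mm9 build, so whether a window lies inside a peak was not determined. Arid1a (high in both) is at chr4:133756720-133757019, minus strand, and Btg2 (ranked apart, FLI1 higher) at chr1:134079106-134079405, minus strand. Mthfd1 (ranked apart, ERG higher) is at chr12:76254982-76255281, plus strand, and Cpt1a (FLI1 list alone) at chr19:3323051-3323350, plus strand. Ppm1d (ERG list alone) is at chr11:85311004-85311303, plus strand. Etv2 is at chr7:30635803-30636102, minus strand. It is in the ERG list alone, but an ERG peak of Etv2 covers a FLI1 peak given to another gene.
Arid1a: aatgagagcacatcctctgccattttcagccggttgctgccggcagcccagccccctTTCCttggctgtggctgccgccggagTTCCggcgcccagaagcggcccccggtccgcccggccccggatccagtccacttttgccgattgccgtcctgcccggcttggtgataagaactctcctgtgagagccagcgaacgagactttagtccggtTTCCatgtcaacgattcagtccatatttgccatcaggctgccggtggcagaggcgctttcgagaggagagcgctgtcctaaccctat
Btg2: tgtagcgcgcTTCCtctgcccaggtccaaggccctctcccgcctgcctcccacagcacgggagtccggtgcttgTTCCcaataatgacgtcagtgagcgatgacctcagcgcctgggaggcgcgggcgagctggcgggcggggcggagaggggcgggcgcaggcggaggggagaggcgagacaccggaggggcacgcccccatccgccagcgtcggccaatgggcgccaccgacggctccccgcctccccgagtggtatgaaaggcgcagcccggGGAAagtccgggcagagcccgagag
Mthfd1: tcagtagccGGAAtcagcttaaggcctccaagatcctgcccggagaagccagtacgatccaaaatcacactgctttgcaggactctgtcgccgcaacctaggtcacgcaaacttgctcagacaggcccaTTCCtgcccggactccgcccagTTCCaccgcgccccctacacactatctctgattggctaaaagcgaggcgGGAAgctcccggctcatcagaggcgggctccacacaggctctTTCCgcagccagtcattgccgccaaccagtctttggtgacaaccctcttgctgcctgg
Cpt1a: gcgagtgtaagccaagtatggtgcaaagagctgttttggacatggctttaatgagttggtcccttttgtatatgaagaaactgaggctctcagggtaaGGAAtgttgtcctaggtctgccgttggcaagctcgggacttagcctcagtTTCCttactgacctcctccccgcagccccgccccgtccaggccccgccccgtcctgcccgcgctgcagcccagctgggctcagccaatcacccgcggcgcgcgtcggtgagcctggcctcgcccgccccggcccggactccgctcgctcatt
Ppm1d: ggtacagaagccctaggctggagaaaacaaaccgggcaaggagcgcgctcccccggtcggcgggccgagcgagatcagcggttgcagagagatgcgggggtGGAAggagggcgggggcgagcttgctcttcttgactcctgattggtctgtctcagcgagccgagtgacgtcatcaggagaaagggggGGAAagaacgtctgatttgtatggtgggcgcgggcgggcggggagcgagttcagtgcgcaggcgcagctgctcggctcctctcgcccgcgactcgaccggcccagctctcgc
Etv2: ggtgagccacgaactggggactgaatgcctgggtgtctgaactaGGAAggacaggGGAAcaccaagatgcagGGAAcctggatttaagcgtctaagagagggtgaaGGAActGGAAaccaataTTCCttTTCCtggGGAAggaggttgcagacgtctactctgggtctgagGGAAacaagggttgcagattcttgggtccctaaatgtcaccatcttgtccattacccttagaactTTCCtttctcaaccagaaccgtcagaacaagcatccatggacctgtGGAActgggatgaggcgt

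The window of Etv2 held 11 cores on either strand, a number reached by 0.253% of all 32851 RefSeq windows. Mthfd1 held 5 cores, Arid1a and Btg2 3 each, and Cpt1a and Ppm1d 2 each, where 84.6% of all windows held at least 2. The letters GGAA (or TTCC) stood in 96.0% of all windows, in 1148 of 1209 windows of genes in both lists, in 95.2% of those in the FLI1 list alone and in 95.3% of those in the ERG list alone. It stood in 93.4% of windows of genes ranked apart with FLI1 higher and in 94.7% with ERG higher. Genes ranked alike held it in 96.3% of windows and genes high in both in 52 of 52. With the core in nearly every window, its presence could hardly set groups apart, and nothing is concluded from these shares. A longer ETS motif, CCGGAAG on either strand, which contains the core, stood in 8.86% of all windows, 9.35% of those of genes in both lists, 11.9% of FLI1 alone and 14.9% of ERG alone. It was in 17 of the 121 windows of genes ranked apart with FLI1 higher (14.0%), and in 3 of the 38 windows with ERG higher (7.89%). Genes ranked alike held it in 9.32% of 322 windows, and genes high in both in 3 of 52 (5.77%). These shares were not tested, and several rest on few windows. None of the 6 windows shown holds it. GATC, the site that Dam methylates, stood in 48.0% of all windows, 46.2% of those of genes in both lists, 46.3% of FLI1 alone and 48.2% of ERG alone. The median window held 7 CpG over all genes and 17 in each of these groups. CCGGAAG itself holds a CpG, and how far CpG content sets its shares was not tested. A match describes the letters of a window and does not mark a bound site.

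The ERG list was largely contained in the FLI1 list, and the reverse did not hold. The 1245 common genes were 12.2% of the FLI1 genes (exact binomial interval 11.5 to 12.8%) and 78.8% of the ERG genes (76.7 to 80.8%). As given above, the FLI1 list held 35.5% of protein-coding genes and the ERG list 5.79%. The lists also differ in depth and in number of peaks, and how far that sets which genes are missing from the ERG list was not tested. Absence from a list says that no peak was given to the gene, and it says nothing of reads outside peaks.

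FLI1 genes with denser or more numerous peaks were more often in the ERG list. The share also in the ERG list was 5.37% (4.07 to 6.93%) in the 1025 FLI1 genes of lowest density and 23.4% (20.8 to 26.1%) in the 1026 of highest density. Among FLI1 genes with 1 peak the same shares were 4.57% and 19.5%. By number of FLI1 peaks, the share was 7.98% of genes with 1 peak, 14.4% with 2, 20.5% with 3 and 51.6% (38.6 to 64.5%) of the 62 genes with 10 or more. In the other direction, 67.3% (59.3 to 74.6%) of the 156 ERG genes of lowest density were in the FLI1 list, and 86.1% (79.7 to 91.1%) of the 158 of highest density.

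**Figure D1:**
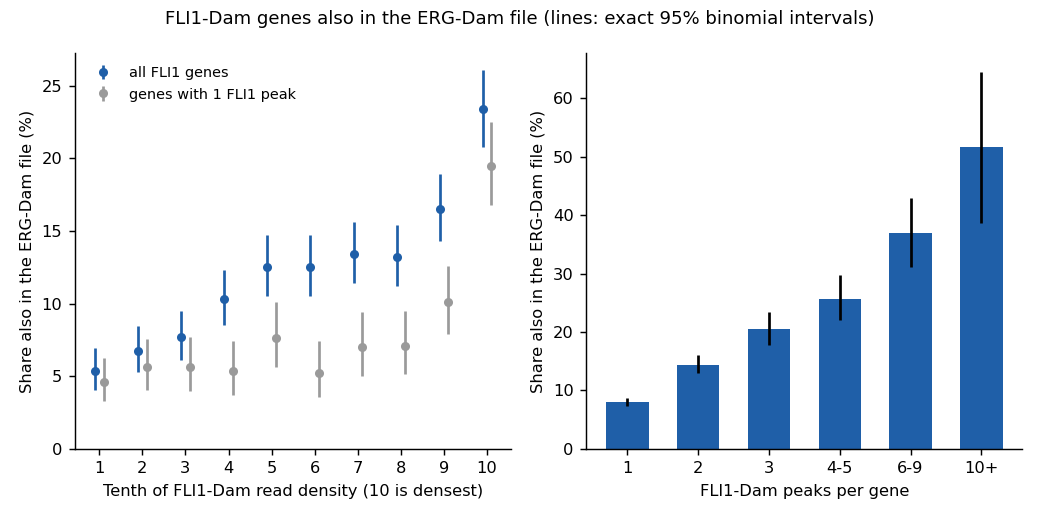
Share of FLI1-Dam genes that were also in the ERG-Dam list (%, vertical axes), by class of FLI1 read density on the left, for all genes (blue) and genes with 1 FLI1 peak (grey), and by number of FLI1 peaks on the right, with exact binomial intervals (95%) as lines. The share of all genes was 5.37% in the lowest of 10 density classes and 23.4% in the highest.

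By gene type, protein-coding genes in both lists were 13.2% of the FLI1 and 81.0% of the ERG protein-coding genes. For lincRNA genes, long non-coding RNAs between genes, the shares were 11.3% and 76.0%. MicroRNA genes gave 10.4% and 73.9%, on 17 genes in both. The small RNAs of the spliceosome (snRNA, 8 genes in both) gave 4.40% and 53.3%, and those of the nucleolus (snoRNA, 4 genes in both) gave 2.48% and 44.4%, with intervals as wide as 13.7 to 78.8%. Pseudogenes gave 6.32% and 62.2%, and antisense genes 9.12% and 61.4%. Chromosome X carried 4.52% of FLI1 genes and 4.31% of ERG genes, with intervals that overlap. Some genes carry exactly the peaks of another gene, 8.74% of FLI1 genes and 14.2% of ERG genes, and such genes are counted as listed but are not separate observations.

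Most genes in both lists had peaks of both factors at one place. In 810 of the 1245 genes (65.1%, 62.3 to 67.7%) a peak of ERG-Dam met a FLI1-Dam peak of the same gene by at least 1 base. The median percentile of these 810 genes was 75.3 in the FLI1 list and 61.5 in the ERG list. In the 435 genes without such contact the medians were 44.4 and 37.3. For those 435 genes the percentiles describe different places that were given to one gene.

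The median percentile of the common genes was 64.9 in the FLI1 list and 52.5 in the ERG list, where the median over all genes of a list is by construction 50.0. Because they make up 78.8% of the ERG list and 12.2% of the FLI1 list, their ERG median is held near 50.0, and these medians do not show that one factor ranked them higher. The FLI1 percentile was the higher in 793 genes and the ERG percentile in 452, with a median difference (FLI1 minus ERG) of 9.15 points and a range from -44.8 at the 5th to 63.8 at the 95th percentile. Of the 1245, 132 (10.6%) were ranked apart with FLI1 higher, 46 (3.69%) were ranked apart with ERG higher, 348 (28.0%) were ranked alike and 67 (5.38%) were high in both. This balance depended on the ranking. Ranked among the common genes alone, FLI1 was higher in 641 and ERG in 602, and the numbers ranked apart turned to 75 with FLI1 higher and 88 with ERG higher. Ranked by read count in place of density, they were 209 and 20. For some genes, differences under these rankings that end a call or turn a direction are given below as FLI1 minus ERG points. A gene without such a value is not thereby stable. By read count the sign turned for 37 of the 121 named genes in both lists, and among the common genes alone for 20. The counting intervals of the percentiles lay apart in 653 genes, 463 with FLI1 higher and 190 with ERG higher. Just past the threshold stood Nrarp, at percentile 90.9 in the FLI1 list and 40.8 in the ERG list, and just short of it Prkch, at 59.3 and 9.47.

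**Figure D2:**
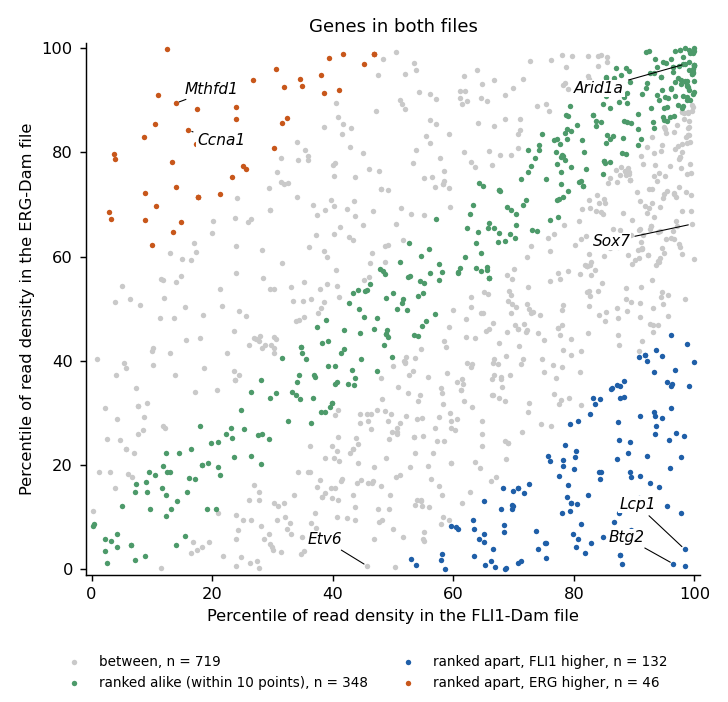
Percentile of read density in the FLI1-Dam list (horizontal) and in the ERG-Dam list (vertical) for the 1245 genes in both, 1 point a gene, coloured by class. The 348 genes ranked alike follow the diagonal, 132 genes lie far below it and 46 far above, numbers that turn to 75 and 88 when ranked among the common genes alone.

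All 67 genes high in both had touching peaks, beside 65.1% of all common genes. Their median density was 216 reads per kb in the FLI1 list and 125 reads per kb in the ERG list. Arid1a, a subunit of the SWI/SNF chromatin remodelling complex, had 1492 FLI1 reads at 238.7 per kb (percentile 98.5, 98.3 to 98.7) and 309 ERG reads at 147.1 per kb (percentile 96.9, 95.5 to 97.8). Its single FLI1 peak, chr4:133282041-133288291 on mm9, contains its single ERG peak, chr4:133284968-133287068. The intervals do not overlap, yet the percentiles are less than 2 points apart.

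Cbx5, which encodes the heterochromatin protein HP1 alpha, had 595 FLI1 reads (percentile 97.6) and 392 ERG reads (percentile 99.6). It shares its peaks with Hnrnpa1, an RNA-binding splicing factor, and the peaks cannot be given to one of them. Idh1, the cytosolic isocitrate dehydrogenase, had 407 FLI1 and 213 ERG reads, at percentiles 99.8 and 99.02. Trmt1, a tRNA methyltransferase, had 277 and 202 reads at percentiles 98.2 and 98.3. Both genes were dense in each library, with fewer reads on the ERG side. Coro2b, an actin-binding coronin, had 794 and 353 reads at percentiles 96.8 and 99.5. The others of the 10 with the best lower percentile were Gm10222, Apol7a, Fam69a, Ceacam19 and Rps13-ps1, the last filed as protein-coding. Under ranking by read count Idh1, Fam69a, Rps13-ps1, Ceacam19 and Trmt1 were no longer within 10 points, with differences from -14.1 to -25.9. Gm10222 stands out by depth, with 8372 FLI1 reads and 34307 ERG reads, the highest of any gene of the ERG list. Whether those reads come from repeated sequence was not tested.

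At the low end of both lists were Cadps2, Sorcs3, Nrcam, Onecut2 and Lrrtm4, with FLI1 percentiles from 2.22 to 4.20 and ERG percentiles from 1.30 to 5.76. Nrcam, a neuronal cell adhesion molecule, had 104 FLI1 reads and 12 ERG reads. These genes had 11 to 16 ERG reads each, and the interval of Nrcam in the ERG list runs from 0.0633 to 35.3, so they cannot be ordered among the weaker ERG genes. Sorcs3 was the only one of the 5 with touching peaks. Ranking by read count ended the likeness of Cadps2, which had 7 FLI1 peaks, with a difference of 67.2 points, and that of Nrcam, with 26.98.

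The 132 genes ranked apart with FLI1 higher had a median FLI1 density of 109.7 reads per kb and a median of 21 ERG reads. In 56 of them the ERG peak held fewer than 20 reads, where 1018 of all 1245 common genes had at least 20 reads in each list. The 132 are chosen for a low ERG percentile, so few ERG reads follow in part from that choice. Peaks touched in 79 of the 132 (59.8%), beside 65.1% of all common genes. Btg2, an antiproliferative gene, had 320 FLI1 reads at 182.8 per kb (percentile 96.5) and 20 ERG reads at 10.8 per kb (percentile 1.04, 0 to 12.3). Lcp1, the actin-bundling plastin of leukocytes, had 252 FLI1 reads at percentile 98.4 and 14 ERG reads at percentile 3.89. In both genes the intervals were far apart, but the peaks of the factors lay at different places. Those of Btg2 were chr1:135976157-135977907 for FLI1 and chr1:135963786-135965636 for ERG, on mm9.

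Nin, which encodes the centrosomal protein ninein, had 222 FLI1 reads (percentile 97.9) and 13 ERG reads (percentile 10.8). Its ERG interval, 0.253 to 43.2, reaches the middle of the list. Ticam2, an adaptor of Toll-like receptor signalling that shares its peaks with Tmed7, had 228 FLI1 reads (percentile 87.6) and 25 ERG reads (percentile 2.79), in touching peaks. The others of the 10 widest differences were 1200009I06Rik, Pdlim2, Kif9, 2700046A07Rik, Echdc3 and 8430427H17Rik. Over the 10, ERG reads ran from 13 to 25 and FLI1 reads from 149 to 610. Peaks touched in 2 of them, Ticam2 and 8430427H17Rik. With ranks taken by read count Echdc3, Ticam2, Kif9 and 2700046A07Rik were no longer ranked apart, at 21.7 to 44.7 points.

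The 46 genes ranked apart with ERG higher had a median of 85 ERG reads and a median FLI1 density of 47.4 reads per kb. None had fewer than 20 reads in either list, which follows in part from their choice by a high ERG percentile. Peaks touched in 21 of the 46 (45.7%), beside 65.1% of all common genes. Mthfd1, an enzyme of one-carbon folate metabolism, had 121 FLI1 reads over 2 peaks at 43.2 per kb (percentile 13.97) and 99 ERG reads at 86.01 per kb (percentile 89.4, 83.5 to 92.1). Its FLI1 peaks began 51.7 kb and 63.1 kb from the centre of the ERG peak, so the ERG peak stood where no FLI1 peak of the gene was listed. Lgmn, the lysosomal protease legumain, had 76 FLI1 reads at percentile 8.65 and 62 ERG reads at percentile 82.9, again in separate peaks.

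Ccna1, which encodes cyclin A1, had 54 FLI1 reads (percentile 16.1) and 68 ERG reads (percentile 84.2). Tubgcp3, a subunit of the gamma-tubulin complex, had 59 FLI1 reads (percentile 3.76) and 50 ERG reads (percentile 79.6), in touching peaks. Ccna1 thus had more ERG than FLI1 reads, in separate peaks, though the ERG list holds far fewer reads in all. Ppp6r1, a regulatory subunit of protein phosphatase 6, had 186 FLI1 and 236 ERG reads, at percentiles 17.5 and 88.3, also in separate peaks. The others of the 10 were Myo3a, Aqp11, Ccdc92, Kank4 and C530008M17Rik, with touching peaks in Ccdc92. Myo3a, an unconventional myosin, headed them with 937 ERG reads, but the pseudogenes Gm13340 and Gm13341 are listed with the same read number, so its reads cannot be placed with Myo3a alone. When ranked by read count, 5 of the 10 were no longer ranked apart: Mthfd1 differed by -49.5 points, Myo3a by -44.9, Ppp6r1 by -42.6, Kank4 by -39.7 and C530008M17Rik by -7.08.

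**Figure D3:**
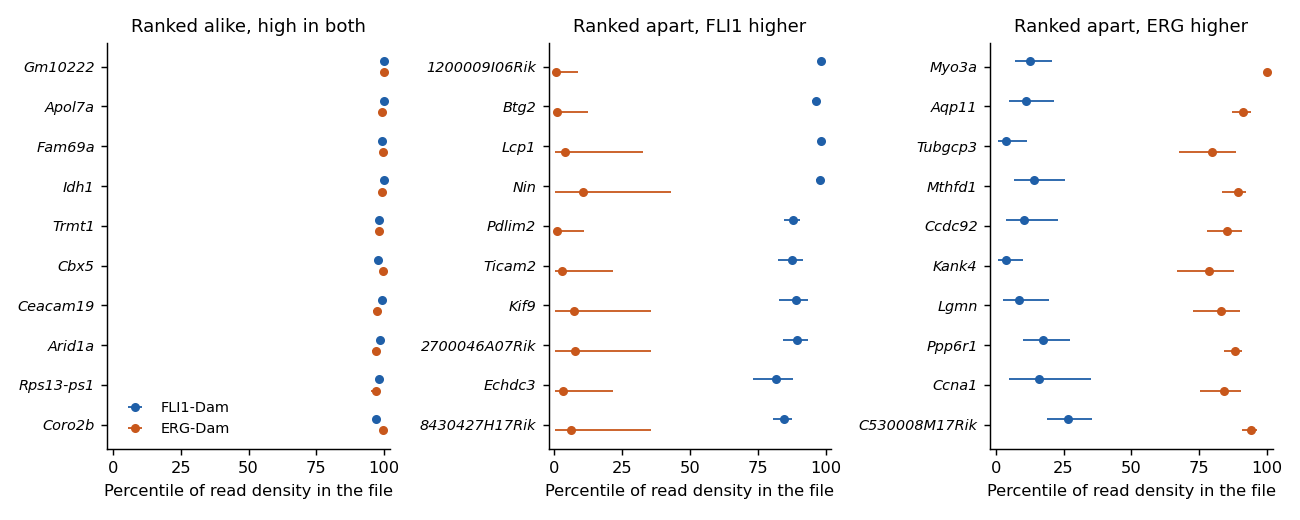
Percentile of read density (horizontal axes) in the FLI1-Dam list (blue) and the ERG-Dam list (orange) for the 10 genes highest in both and the 10 ranked farthest apart each way, with the counting interval (95%) as a line. Btg2 stands at 96.5 and 1.04, and Lgmn at 8.65 and 82.9.

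**Figure D4:**
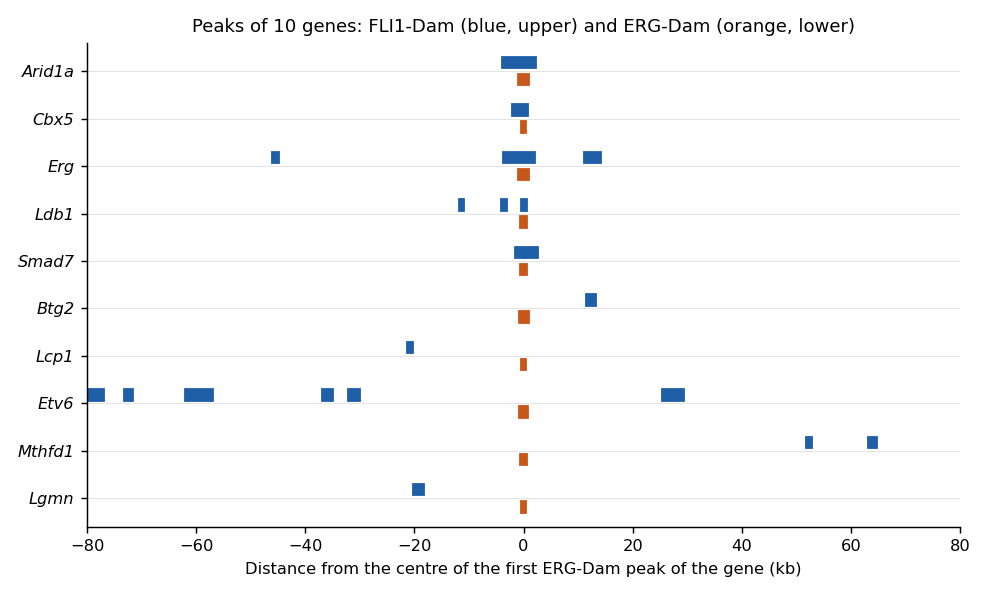
Peaks of 10 genes as distance from the centre of the first ERG-Dam peak (kb, horizontal axis), FLI1-Dam above and ERG-Dam below; peaks of Erg and Etv6 beyond 80 kb are not drawn. Arid1a, Cbx5, Erg, Ldb1 and Smad7 have touching peaks, and Btg2, Lcp1, Etv6, Mthfd1 and Lgmn do not.

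Most of the densest genes of the FLI1 list were absent from the ERG list. Of the 1026 FLI1 genes of highest density, 240 (23.4%) were in it, so absence was the usual case and does not mark out the genes named here. Abt1, an activator of basal transcription, had 1171 FLI1 reads at 1064 per kb. Cpt1a, which carries fatty acids into mitochondria, had 569 reads at 568.4 per kb, and Srebf1, a regulator of lipid synthesis, had 730 reads at 456.0 per kb. All were above percentile 99 in the FLI1 list and had no assigned peak in the ERG list. Rfc4, Eps15, Eef1g, Olfr341 and Ces1a were of the same kind, with densities from 401.1 to 472.9 reads per kb. Gm10800 and Gm10801 led them with 18987 and 8381 reads, and whether these come from repeated sequence was not tested.

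The ERG list alone held 334 genes, with a median of 26 reads and a median percentile of 38.7. Ppm1d, a phosphatase of the DNA damage response, had 294 ERG reads at 367.0 per kb (percentile 99.3). Atp6v0d1, a subunit of the vacuolar proton pump, had 157 reads (percentile 98.2), and Mylip, a ubiquitin ligase, 246 reads (percentile 97.1). These genes were among the densest of the ERG list and had no FLI1 peak assigned. Plekho2, Ipo8, Cep350, Hist1h2ai, Wipi2, Vps11 and BC049715, which shares its peak with the spliceosomal gene Wbp11, made up the 10 densest, with percentiles down to 95.5. In 7 of the 334 genes the ERG peak touched a FLI1 peak that had been assigned to another gene, and 33 of the 9001 FLI1-alone genes touched an ERG peak of another gene.

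Etv2, an ETS factor that starts the endothelial and blood programme in the embryo, was such a case. It was in the ERG list with 733 reads at 110.2 per kb in 2 peaks (percentile 93.002, 91.9 to 94.4) and was not in the FLI1 list. Its peaks were chr7:31417245-31418595 and chr7:31420845-31426145 on mm9. The second also belongs to Haus5 and Rbm42 in the ERG list, and it covers a FLI1 peak, chr7:31421653-31425703, that was given to Rbm42 alone. Rbm42, an RNA-binding protein gene, had 333 FLI1 reads (percentile 64.7) and 587 ERG reads (percentile 93.2). Both factors thus had a peak at this place, and the lists differ in the genes it was assigned to. The first ERG peak of Etv2 met no FLI1 peak of these genes.

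The number of peaks per gene was higher on the FLI1 side, in the whole lists as well as in the common genes. The FLI1 list holds 16834 peaks and the ERG list 1588. Of all 10246 FLI1 genes 6554 had 1 peak, and of all 1579 ERG genes 1453 did. How far this sets the counts in the common genes was not tested. FLI1 had more peaks in 696 of the 1245 common genes (55.9%), ERG in 15 (1.20%), and 534 had as many of each, 508 of them 1 peak in each. Gm20388 had 60 FLI1 and 13 ERG peaks, and Fgfr2, a fibroblast growth factor receptor, had 40 and 3. On mm9 the FLI1 peaks given to Gm20388 ran from chr8:122435685 to chr8:126819635. Those given to Fgfr2 ran from chr7:137286303 to beyond chr7:139163503. The assignment rule is not known, so a peak counted for a gene need not lie at that gene. Arfip1 had 21 and 1, Odz4, a teneurin, 23 and 3, and Frmd4b 18 and 3. Fgfr2 nevertheless ranked alike by density, at percentiles 64.6 and 60.7, though not by read count, with 18.9 points. Of genes in the FLI1 list alone, Auts2 had most peaks, 25, followed by Schip1 with 17 and by Macrod2, Pde4d and the guidance receptor gene Robo1 with 16 each. Robo1 stood at percentile 12.7 by density, so many peaks did not mean dense peaks.

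The 15 genes with more ERG peaks included Egfl7, a secreted factor of endothelial cells, with 1 FLI1 peak and 3 ERG peaks. By density Egfl7 ranked the other way, at percentile 91.2 in the FLI1 list (510 reads) and 54.2 in the ERG list (170 reads). By read count that direction turned, to -6.91 points. Rab11fip3 had 1 and 3 peaks at percentiles 98.9 and 87.7. Others were AY036118, Ankrd46, Cdx1, Cyp20a1, Glrp1, Gm20532, Lrch1, Mgat4b, Mmp15, RP24-292K9.1.1, Rnd3 and Tph1.

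Of non-coding genes, the densest of the FLI1 list were Gm4285, 4932412D23Rik and U5, the last sharing its peak with Alyref2 and B930036N10Rik. 4932412D23Rik had 1285 FLI1 reads (percentile 99.9) and 311 ERG reads (percentile 96.5). Gm4285 ranked at 99.956 and 39.8. In the ERG list the densest were AY036118, with 15623 ERG and 243 FLI1 reads, Gm13340 and 2610206C17Rik. AY036118 was in the highest percentiles of both lists by density. Of the ERG reads in peaks, 11.5% were in AY036118 and 25.3% in Gm10222, so both weigh on sums over that list.

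Over 25 lists of genes of the vessel, blood and general cell biology, 458 distinct members were in either list, 107 in both, 340 in the FLI1 list alone and 11 in the ERG list alone. The lists were chosen with earlier results of these data known and are described by counts. Counts of members below are to be read beside the 35.5% (FLI1) and 5.79% (ERG) of all protein-coding genes. Of the 107, 10 were ranked apart with FLI1 higher, 1 with ERG higher and 34 alike, beside 10.6%, 3.69% and 28.0% of all common genes. Peaks touched in 79 of the 107, beside 65.1% of all common genes.

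**Figure D5:**
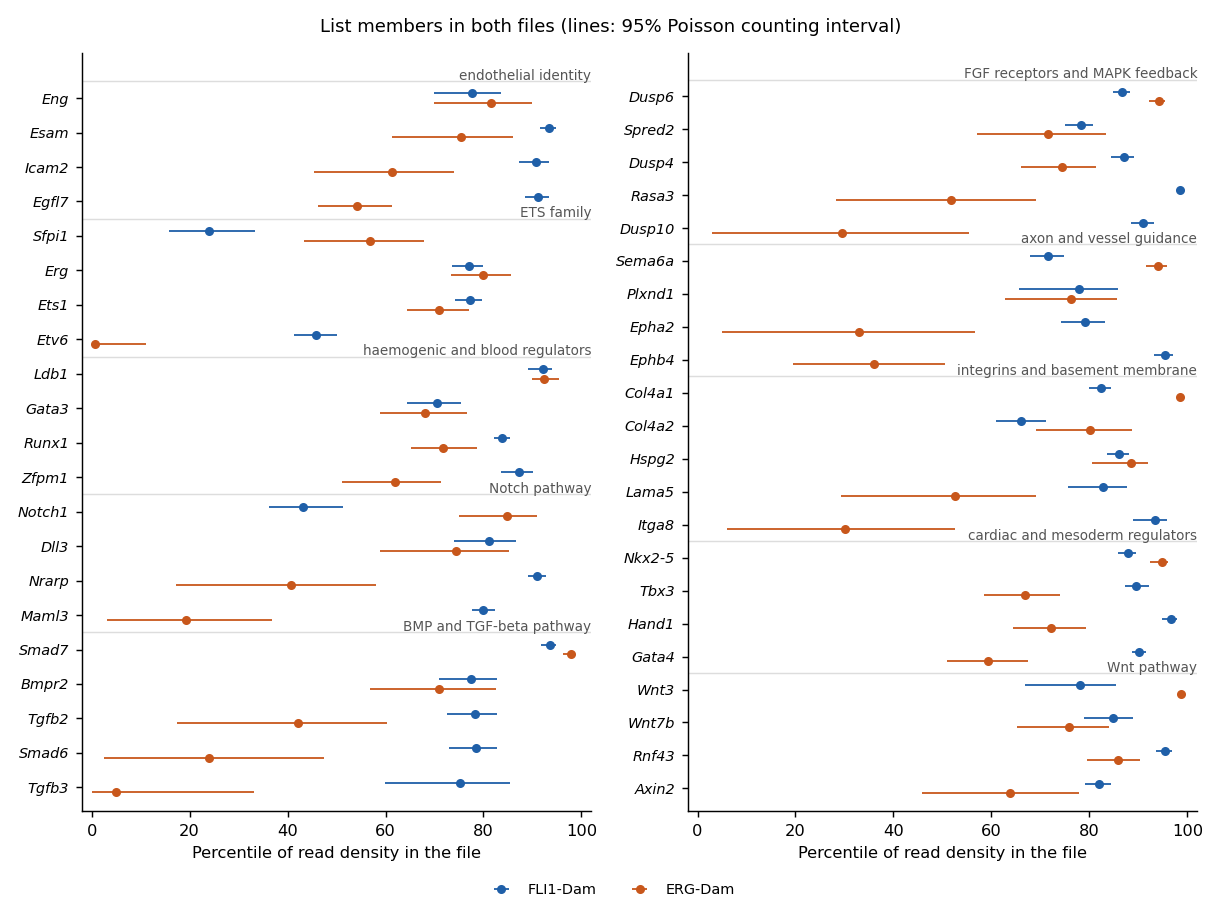
Percentile of read density in the FLI1-Dam list (blue) and the ERG-Dam list (orange) for named members of 10 of the gene lists that were in both, with the counting interval (95%) as a line. Ldb1 lies at about the same place in both, Maml3 and Tgfb3 far lower in the ERG list and Notch1 lower in the FLI1 list, a direction that turns for Notch1 when ranked by read count.

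Of 33 endothelial identity genes, 24 (72.7%) were in the FLI1 list, 5 (15.2%) in the ERG list and 5 in both, beside 35.5% and 5.79% of all protein-coding genes. Eng, the TGF-beta co-receptor endoglin, had 287 FLI1 reads (percentile 77.7) and 50 ERG reads (percentile 81.5) and ranked alike, though not among the common genes alone, with -17.03 points. Esam, an endothelial adhesion molecule, had 669 and 42 reads at percentiles 93.3 and 75.5, and Icam2, another, 347 and 44 reads at 90.7 and 61.3. Of the genes in the FLI1 list alone, Cdh5, the VE-cadherin gene, had 446 reads (percentile 87.4) and Tek, which encodes TIE2, had 1360 reads in 6 peaks (percentile 80.6). Kdr, which encodes FLK1, had 810 reads in 3 peaks (percentile 74.3).

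Among 26 ETS genes, 17 were in the FLI1 list, 5 in the ERG list and 4 in both. Erg itself had 1287 FLI1 reads in 5 peaks (percentile 77.1) and 136 ERG reads in 1 peak (percentile 79.96), in touching peaks. Ets1 had 1770 and 173 reads at percentiles 77.2 and 70.8. Both ranked alike, Erg not among the common genes alone, with -16.4 points. Etv6, a repressor of the family, had 1953 FLI1 reads in 9 peaks (percentile 45.7) and 18 ERG reads (percentile 0.665), in separate peaks. Sfpi1, which encodes the blood regulator PU.1, was higher in the ERG list, at percentile 56.8 (62 reads), than in the FLI1 list, at 23.98 (256 reads). Fli1 was in the FLI1 list alone, with 1416 reads in 7 peaks (percentile 81.96). Of 19 SOX genes, 10 were in the FLI1 list, 3 in the ERG list and 2, Sox6 and Sox7, in both. Sox7 had 1022 FLI1 reads (percentile 99.6) and 96 ERG reads (percentile 66.2).

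Of 22 haemogenic and blood regulators, 17 were in the FLI1 list and 7 in the ERG list, all 7 in both. Ldb1, a LIM-domain-binding cofactor of blood transcription complexes, had 482 FLI1 reads (percentile 92.1) and 122 ERG reads (percentile 92.3). Gata3 ranked at 70.5 and 68.1. Runx1, which is required for blood formation from endothelium, had 2669 FLI1 reads in 10 peaks (percentile 83.8) and 152 ERG reads in 2 (percentile 71.8). Tal1, a master regulator of the blood lineage, was in the FLI1 list alone, with 1096 reads (percentile 74.8).

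In the Notch pathway 15 of 23 genes were in the FLI1 list and 5 in the ERG list, all 5 in both. The receptor gene Notch1 had 590 FLI1 reads in 6 peaks (percentile 43.1) and 55 ERG reads in 1 peak (percentile 84.7), in separate peaks. By read count the direction of Notch1 turned, from -41.6 to 24.1 points. Maml3, a co-activator of Notch, ranked apart with FLI1 higher, with 1975 FLI1 reads (percentile 79.99) and 42 ERG reads (percentile 19.2). The call of Maml3 ended under either other ranking, with 43.5 points by read count and 49.5 among the common genes. Nrarp, a feedback inhibitor, had 1014 and 32 reads and was 43.7 points apart among the common genes. The ligand gene Dll3 ranked alike by density, at 81.2 and 74.4, and not by read count, with 15.3 points. All 4 genes were FLI1 higher by read count.

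In the BMP and TGF-beta pathway 25 of 36 genes were in the FLI1 list, 9 in the ERG list and 8 in both. The inhibitory SMAD genes differed. Smad7 had 622 FLI1 reads (percentile 93.5) and 197 ERG reads (percentile 97.8) and ranked alike, and Smad6 had 550 and 22 reads at percentiles 78.5 and 23.9 and ranked apart. The ligand gene Tgfb3 ranked apart too, at 75.3 (100 reads) and 4.97 (15 reads). The receptor gene Bmpr2 ranked alike, at 77.5 and 70.96, in separate peaks. By read count Tgfb3 was no longer ranked apart, with 17.5 points, nor Bmpr2 alike, with 24.7. Among the common genes alone Smad6 was 43.5 points apart and Smad7 -11.6, past the limits of both calls. Acvrl1, the endothelial receptor ALK1, was in the ERG list alone with 38 reads (percentile 58.5).

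In the VEGF and angiopoietin pathway 14 of 20 genes were in the FLI1 list and 3 in the ERG list, all 3 in both. Nr2f2, a nuclear receptor of venous identity, ranked apart, with 360 FLI1 reads (percentile 64.3) and 11 ERG reads (percentile 5.76), a call that ended among the common genes alone, with 44.2 points. The co-receptor gene Nrp1 stood at 62.2 and 47.9, in separate peaks. In the Wnt pathway 21 of 41 genes were in the FLI1 list, 7 in the ERG list and 5 in both. The ligand gene Wnt3 had 159 FLI1 reads (percentile 78.01) and 179 ERG reads (percentile 98.6), in separate peaks. Rnf43, an inhibitor of Wnt receptors, ranked alike, at 95.4 and 85.9, though ERG was higher by read count, with -13.3 points.

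Of 34 guidance genes, 27 were in the FLI1 list and 9 in the ERG list, all 9 in both. Ephb4, the venous Eph receptor, had 239 FLI1 reads (percentile 95.5) and 57 ERG reads (percentile 36.004) and ranked apart by density. By read count the direction turned, to -3.10 points. Plxnd1, an endothelial semaphorin receptor, ranked alike, at 77.9 and 76.2, in separate peaks. It differed by -20.6 points by read count and by -10.7 among the common genes. Of 35 integrin and basement membrane genes, 26 were in the FLI1 list and 7 in the ERG list, all 7 in both. Col4a1, a chain of collagen IV, had 1806 FLI1 reads in 7 peaks (percentile 82.4) and 279 ERG reads in 1 peak (percentile 98.4). Hspg2, which encodes perlecan, ranked alike at 86.1 and 88.6. Itga8, an integrin subunit, ranked apart at 93.3 and 30.1, in separate peaks. These places also depended on the ranking: by read count Col4a1 turned to 1.71 points, Hspg2 to 19.2 and Itga8 to 17.4. Hspg2 stood at -12.4 among the common genes.

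Of 23 FGF receptor and MAPK feedback genes, 18 were in the FLI1 list and 7 in the ERG list, all 7 in both. Dusp6, an ERK phosphatase, had 1856 FLI1 reads (percentile 86.6) and 352 ERG reads (percentile 94.3) and ranked alike. Dusp10, a phosphatase of the stress kinases, had 556 and 18 reads at 90.996 and 29.4 and ranked apart, in separate peaks. Of 22 cardiac and mesoderm regulators, 18 were in the FLI1 list and 7 in the ERG list, all 7 in both. Nkx2-5, a regulator of heart formation, had 1291 and 250 reads at 87.9 and 94.8, and Gata4, another, 1884 and 139 reads at 90.1 and 59.4. Among the common genes alone Dusp6 (-18.7 points) and Nkx2-5 (-17.4) were no longer within 10 points.

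Of 22 AP-1 and immediate early genes, 15 were in the FLI1 list, 2 in the ERG list and 1, Atf3, in both, where it ranked apart at 83.4 and 31.7. That call ended by read count, with 38.5 points, and among the common genes, with 42.4. The KLF family had 11 of 17 genes in the FLI1 list and 1 in the ERG list. That gene, Klf3, stood at 35.5 with 524 FLI1 reads and at 80.4 with 99 ERG reads, a difference that turned to 2.90 points by read count. The forkhead family had 16 of 32 genes in the FLI1 list and 3 in the ERG list. Of 44 chromatin regulators, 29 were in the FLI1 list and 8 in the ERG list, all 8 in both. Arid1b, like Arid1a a SWI/SNF subunit, stood at 55.2 and 75.02, and at 1.97 points by read count. Of 31 cell cycle genes, 16 were in the FLI1 list and 4 in the ERG list. Rb1, the retinoblastoma tumour suppressor, ranked apart with FLI1 higher, at 87.6 and 35.1. Ccna1 ranked apart the other way, in separate peaks. The call of Rb1 ended by read count, with 35.5 points, and among the common genes, with 44.7.

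Lists of other cell types and of general functions were described in the same way. Of 18 pluripotency genes, 9 were in the FLI1 list and 3 in the ERG list. Sall4, a zinc-finger factor of embryonic stem cells, had 1084 FLI1 reads (percentile 98.7) and 93 ERG reads (percentile 90.1). Neural genes gave 13 of 21 and 3, with Nes, which encodes nestin, at 95.1 and 90.5. Endoderm and liver genes gave 5 of 16 (31.2%) and 0, and housekeeping genes 7 of 23 (30.4%) and 2 (8.70%). The shares over all protein-coding genes were 35.5% and 5.79%. Actb, the beta-actin gene, ranked alike, at 85.5 and 83.4.

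Ribosomal protein genes gave 40 of 81 in the FLI1 list and 3 in the ERG list, and 3 of 81 stands beside the 5.79% of all protein-coding genes. Replication-dependent histone genes gave 22 of 67 (32.8%) and 6 (8.96%). Hist1h2bj ranked alike, at 95.2 and 97.1, and Hist1h2ai was in the ERG list alone, although near-identical histone genes can share reads. Hox genes gave 13 of 39 (33.3%) and 2 (5.13%), near the 35.5% and 5.79% of all protein-coding genes. Hoxa3 stood at 29.5 and 68.97 and Hoxd3 at 90.97 and 48.4, in opposite directions by density. The peaks of Hoxd3 were separate. By read count both were ERG higher, with -19.4 and -11.98 points.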

How the data were processed

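Libraries were made, per the labels' protocols, from 50 ng of DNA with 10 cycles of amplification and single reads of 60 bp. The deposited lists give, per the file headers, a read count for each gene, the number of reads in its peaks, and that number per kb of peak, a signal made by the authors. Reads divided by the total width of a gene's peaks, with both end bases of each peak counted, gave the deposited signal within 0.1%. This held in all 10246 FLI1 and 1579 ERG genes, so the signal is not scaled to depth or to the control. The submitters' processing notes name the build mm9. With the aligner, peak caller, threshold and gene assignment rule not given in the sources used here, none of these steps could be checked. Dam-only libraries were not analysed here.

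Percentiles are mid-ranks within a list (Python 3.11.15, pandas 2.3.3, numpy 2.4.6, scipy 1.17.1). Shares carry exact binomial (Clopper-Pearson) intervals and reads exact Poisson intervals, both at 95%. Reads carry no molecular identifiers, so these cover counting error only. The ranking steps were tested on simulated data, in which ERG densities were reordered to follow FLI1 percentiles or their opposite, without counting noise. That check covers the working of the steps and says nothing of ERG genes with few reads. Genes of the lists were matched to RefSeq by Ensembl identifier, and where that failed by symbol or an unambiguous synonym. RefSeq was used for names, the count of protein-coding genes and promoter windows. Promoter windows on GRCm38.p6 and peaks on mm9 were not related by position. With 1 library per group no test was possible. Alternatives ranked by read count, ranked among common genes only, used genes with 1 peak in each list, required 20 reads, or changed thresholds.

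Members and gene lists were chosen with earlier results of these data known. Named protein-coding genes were the 10 highest and 5 lowest in both lists, the 10 ranked farthest apart each way, the 10 densest genes of each list alone, the 5 with most FLI1 peaks among genes of the FLI1 list alone, and the 5 with the largest difference in peaks. Named too were the 3 densest non-coding genes of each list, up to 4 common members of each gene list, and all its members ranked apart. Genes of lists in 1 list alone, and the 15 with more ERG peaks, were chosen after their values were seen. The values of 1 gene list and of 1 of these 15 genes are not reported here.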

Additional observations from a re-analysis of the deposited data

How the results depend on the processing

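The number of genes in both lists, 1245, fell to 340 with the FLI1 list held to its densest 1579 genes and to 810 with touching peaks required, an alternative chosen after seeing the data. The 132 genes ranked apart with FLI1 higher became 209 by read count, 75 when ranked among common genes, 57 with 1 peak in each list, 76 with at least 20 reads in each and 79 with touching peaks. The 46 with ERG higher became 20, 88 and 24 under the first 3 of these, 21 with touching peaks, and 89 at a threshold of 40 points. Ranked among the common genes alone, the numbers ranked apart therefore turned, with more ERG higher than FLI1 higher. Over all common genes in that ranking, FLI1 was still higher in 641 and ERG in 602. The 348 ranked alike became 148 with 1 peak in each list and 189 within 5 points. The 67 high in both became 160 at percentile 80. Of the 132, 62 kept their call by read count and 75 among common genes, and of the 46, 10 and 46. By read count the share of FLI1 genes also in the ERG list was 36.5% in the highest of 10 classes and 3.33% in the lowest. Ephb4 reversed by read count, from 59.5 points to -3.10, as the only named gene ranked apart whose sign turned, but over all 121 named genes in both lists 37 changed sign, 17 of them among the 77 that differed by more than 10 points. By read count 15 of 31 named calls of ranked apart and 22 of 44 of ranked alike ended. Among the common genes alone 20 of 121 changed sign, 2 of them among the 77, and 6 of 31 and 10 of 44 calls ended. No paired analysis was possible because each group has 1 library, and no library could be left out. The ERG depth, a median of 36 reads a gene, limits the order of its weaker genes.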
